A study of Mus musculus with 7 samples.

Results

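The potassium channel genes outside the BK family (the large-conductance, calcium-activated channels, Kcnm) were described in islets of pregnant mice. Members were the genes whose platform annotation gave a single symbol starting with Kcn and not with Kcnm, and the probe set with the highest mean stood for a gene. This gave 85 of the 19938 genes on the array. Of these, 71 encode channel subunits, 13 encode auxiliary or regulatory proteins and 1, Kcnd3os, is a long non-coding RNA in the RefSeq table. Transcripts were measured with 1 Affymetrix array per mouse in islets of female C57BL/6 mice on day 15 of pregnancy, after mating at 12 to 16 weeks of age. The 3 PrlR+/+ mice carried the intact prolactin receptor gene and the 4 PrlR+/- mice were heterozygous for its null allele, so that 1 intact allele was left in every cell. No treatment or other allele is named in the labels.

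Potassium channels let potassium leave the cell and so hold or restore a negative membrane potential. In beta cells, glucose metabolism closes the ATP-sensitive potassium channel, the membrane depolarises, calcium enters and insulin is released. Voltage-gated, calcium-activated and 2-pore domain channels then shape and end the electrical activity. Islets release more insulin in pregnancy, and the prolactin receptor takes part in that adaptation. The comparison of PrlR+/- with PrlR+/+ mice asked whether channel transcripts depend on both receptor alleles.

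The labelled tissue was borne out by the hormone genes. Ins2, Gcg, Sst and Ppy all lay at or above the 99.9th percentile of gene means, and so did the acinar gene Cpa1, a pancreatic carboxypeptidase. The arrays therefore held transcripts of several islet cell types and of exocrine cells, and in such bulk samples fewer cells of a type and less RNA per cell cannot be told apart. Values are log2 array signals. Probe sets bind with different strength and no detection call was given, so the order of genes below is an order of signals, not of transcript numbers, and low signals may not reflect transcript. The median signal of all genes was 7.36, with quartiles of 5.71 and 9.02.

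Most potassium channel genes had low signals, and a small group stood high. Of the 85 genes, 25 (29.4%) lay above the median of all genes, 12 of them above the upper quartile, while 44 lay between the lower quartile and the median and 16 below the lower quartile. The highest was Kcnk16, a 2-pore domain channel known for its strong expression in islets, with a mean of 12.28 over the 7 mice, at percentile 99.3 of all genes. Kcnip1, a calcium-binding partner of A-type voltage-gated channels, followed at 11.01, then Kcnn3, a small-conductance calcium-activated channel, at 10.27, and Kcnj11, the pore of the ATP-sensitive channel of beta cells, at 9.87. Kcnip3, Kcnh2, Kcnk1, Kcng3, Kcnip4, Kcna2, Kcnab3 and Kcnk3 followed between 9.82 and 9.03. Kcnk12, a 2-pore domain subunit, Kcnd3os and Kcnd1, an A-type voltage-gated channel, completed the highest 15 at 8.76, 8.28 and 8.26.

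The ranges of neighbours in this order were apart only in places. Among the 14 pairs of neighbours in the highest 15, the ranges over the 7 mice overlapped in 11. They did not overlap between Kcnk16, whose lowest mouse was at 12.07, and Kcnip1, whose highest was at 11.15, nor between Kcnk3 and Kcnk12 or between Kcnk12 and Kcnd3os. From Kcnn3 down to Kcnk3 each gene overlapped with the next. Overlap of ranges does not compare genes within a mouse, so it does not show that an order is unclear. Kcnip1 and Kcnn3 are among the 11 pairs, though Kcnip1 was higher in each of the 7 mice. The same 15 genes were highest in the PrlR+/+ mice alone and after quantile normalization. When the 2 probe sets of Kcna2 were averaged in place of taking the higher (9.36 and 6.59), 14 of the 15 stayed in the group.

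**Figure D1:**
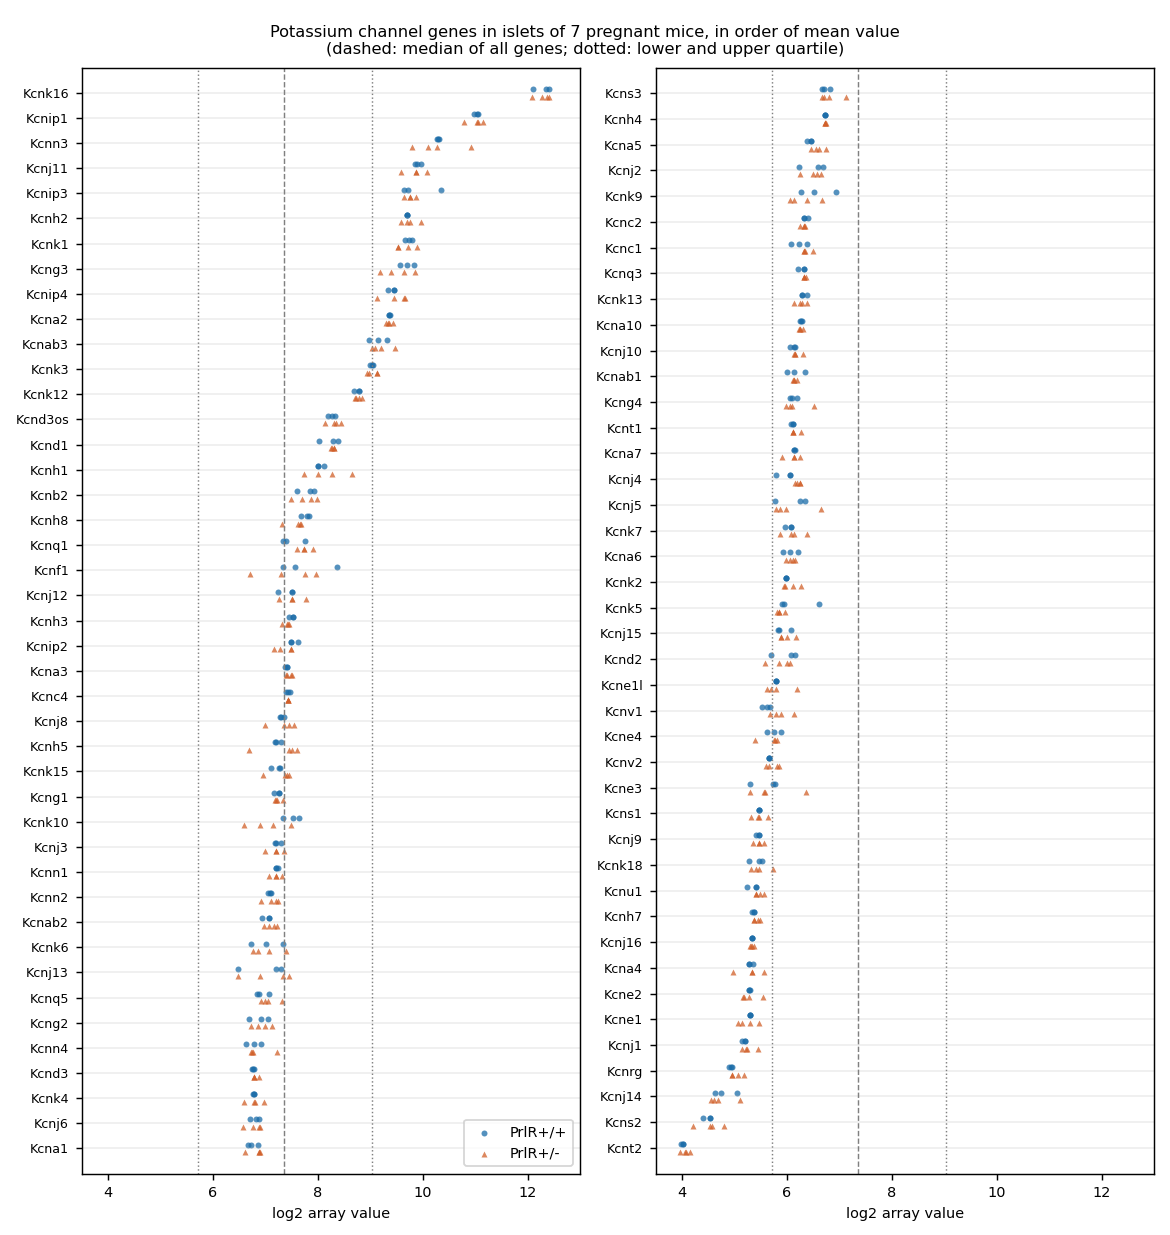
Log2 array value (x axis) of each of the 85 genes (rows, in order of the mean) in 3 PrlR+/+ (circles) and 4 PrlR+/- mice (triangles), 1 symbol per mouse, with the median (dashed) and quartiles (dotted) of all genes. Kcnk16 stands apart at 12.07 to 12.40, 60 genes have means below the median of all genes, and the symbols of both genotypes lie among each other in nearly every row.

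No potassium channel gene passed the test between the genotypes. In the limma fit over all 19938 genes, 0 of 85 had an adjusted p under 0.05 (0% of all genes), and every member had an adjusted p of 0.99 or above. An unadjusted p under 0.05 was found for 3 members (3.53%, against 2.2% of all genes), and 1 member (1.18%, against 2.24% of all genes) had genotype groups that did not overlap. Of the 85 differences, PrlR+/- minus PrlR+/+, 51 were positive and 34 negative, with a median of 0.02 and quartiles of -0.02 and 0.07 on the log2 scale, beside a median of 0.01 and quartiles of -0.06 and 0.08 over all genes. Without PrlR+/- 4 the split was 42 positive and 43 negative, and 49.5% of all genes were positive there. The number with an unadjusted p under 0.05 fell to 0 without PrlR+/+ 1 (0%, against 1.77% of all genes). It fell to 1 without PrlR+/+ 3 or PrlR+/- 4 (1.18% in both, against 1.24% and 1.87% of all genes). The number with groups that did not overlap was 2 to 7 with a mouse left out, where fewer values have to be separated. This was 2.35% to 8.24%, against 3.54% to 10.3% of all genes. It was 7 without PrlR+/+ 2 (8.24%, against 10.3% of all genes) and 6 without PrlR+/- 3 (7.06%, against 4.95% of all genes).

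The intervals were narrow for most members. The 95% interval of the difference lay within 1.5-fold in both directions for 77 of the 85 genes (90.6%, against 89.9% of all genes) and for all 15 genes with the highest signals. For Kcnk16 it ran from 0.838- to 1.19-fold, for Kcnip1 from 0.858- to 1.15-fold and for Kcnj11 from 0.808- to 1.15-fold. The 8 genes with wider intervals were Kcnf1, Kcnh5, Kcnk10, Kcnj13, Kcnk9, Kcnj5, Kcnk5 and Kcne3. Of these only Kcnf1 had a mean above the median of all genes. Of the 85 genes, 60 had means below that median, and how far dim signals can show a difference is unknown. A narrow interval there does not by itself show a lack of change.

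**Figure D2:**
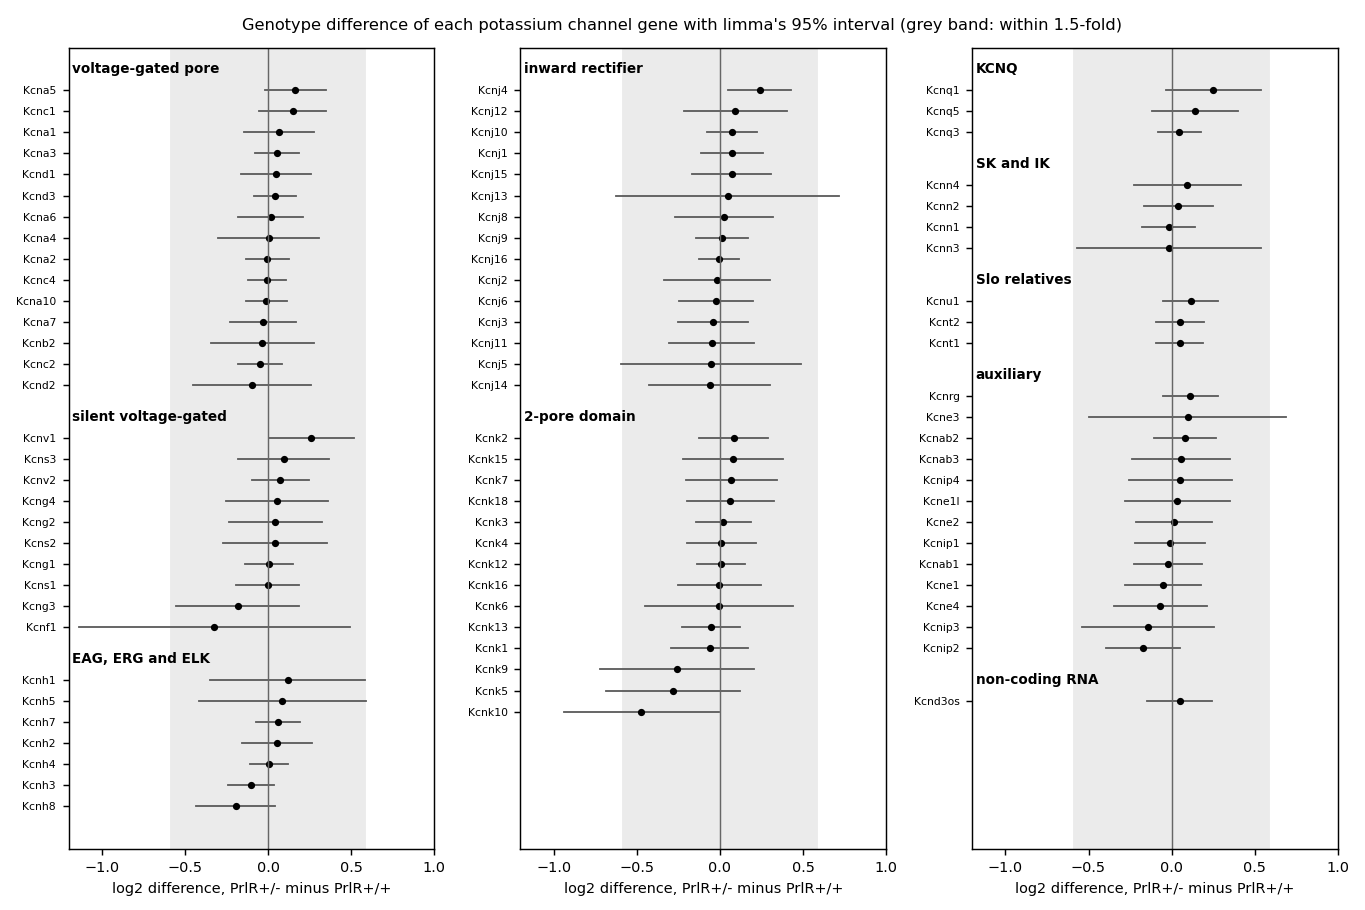
Log2 difference, PrlR+/- minus PrlR+/+ (x axis), of each gene by family, as points with limma's 95% interval from 4 against 3 mice, and a grey band for changes within 1.5-fold. The intervals of 77 genes lie inside the band, and those of Kcnj4, Kcnv1 and Kcnk10 are the 3 that do not reach 0.

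Among the inward rectifiers, which pass potassium best near the resting potential, Kcnj11 was the 1 member above the upper quartile of all genes. Its values were 9.89, 9.85 and 9.96 in PrlR+/+ 1 to 3, and they were 10.07, 9.87, 9.87 and 9.59 in PrlR+/- 1 to 4. The PrlR+/- mice lay on both sides of the PrlR+/+ mice, with a difference of -0.05 ± 0.11 (SE). Abcc8, the sulfonylurea receptor that surrounds this pore, had a mean of 12.47 ± 0.05 (SD, n = 4) for PrlR+/- against 12.39 ± 0.06 (SD, n = 3) for PrlR+/+ mice, a difference of 0.08 ± 0.06 (SE). Kcnj8, the pore of the ATP-sensitive channel of vascular muscle, was near the median of all genes at 7.32, with a difference of 0.03 ± 0.13, and its partner Abcc9 was at 7.51 with 0.03 ± 0.08. Kcnj3, Kcnj5, Kcnj6 and Kcnj9, which form channels opened by G proteins, had means of 7.21, 6.09, 6.79 and 5.46. Kcnj5 spread widely, from 5.77 to 6.35 in PrlR+/+ and from 5.79 to 6.64 in PrlR+/- mice. Over the 15 genes of the family 8 differences were positive and 7 negative, with a median of 0.01.

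Kcnj4, a strong inward rectifier best known from brain, was the 1 member whose groups did not overlap. It was at 5.79, 6.06 and 6.05 in PrlR+/+ 1 to 3 and at 6.15, 6.24, 6.19 and 6.25 in PrlR+/- 1 to 4. The PrlR+/- mice were all higher, but the nearest mice of the groups lay less than 0.1 apart, at a signal at percentile 31.4 of all genes. The difference was 0.24 ± 0.08 (SE; limma, unadjusted p = 0.0196, adjusted p = 0.99), a ratio of 1.18, and it was 0.15 without PrlR+/+ 1, where the unadjusted p was 0.0559 (limma). With any other mouse left out the difference was 0.23 to 0.29, and it did not pass the test in those fits either. Markers of several other cell types also had higher means in PrlR+/- mice, without passing the test, as had 55.7% of all genes. This held for 7 of 7 lymphocyte markers, 4 of 4 PP cell markers, 7 of 8 stellate cell markers and 7 of 7 markers of Schwann cells and neurons, the cells of the islet's nerve supply. The average of the nerve markers ran from 6.99 to 7.17 in PrlR+/- mice, against 6.77 to 6.99 in PrlR+/+ mice, with log2 summed levels of 10.20 to 10.35 and 9.94 to 10.13. The part of these cell types in the value of Kcnj4 was not tested.

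The 2-pore domain channels carry the background leak that sets the resting potential. Kcnk16 was at 12.40, 12.10 and 12.34 in PrlR+/+ 1 to 3 and at 12.37, 12.40, 12.27 and 12.07 in PrlR+/- 1 to 4. Both groups held a mouse near 12.1 and mice near 12.4, and the difference was -0.0025 ± 0.11 (SE). Kcnk1, a subunit with weak currents of its own, had a mean of 9.69 and a difference of -0.06 ± 0.10, and Kcnk3, an acid-sensitive channel, a mean of 9.03 and a difference of 0.02 ± 0.07. The other 11 members lay lower, from Kcnk12 at 8.76 to Kcnk18 at 5.46. The stretch- and lipid-sensitive channel gene Kcnk2 was at 6.04, with 5.99 in all 3 PrlR+/+ mice.

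Kcnk10, a close relative of Kcnk2, had the most negative difference of all members. It was at 7.64, 7.52 and 7.34 in PrlR+/+ 1 to 3 and at 7.14, 7.48, 6.59 and 6.90 in PrlR+/- 1 to 4. Of the PrlR+/- mice 3 lay below every PrlR+/+ mouse, and PrlR+/- 2 lay among them. The difference was -0.47 ± 0.20 (SE; limma, unadjusted p = 0.048, adjusted p = 0.99), a ratio of 0.721 with a 95% interval from 0.521 to 0.996. It was -0.33 without PrlR+/- 3 and -0.62 without PrlR+/- 2, and its unadjusted p was over 0.05 without any 1 of the mice other than PrlR+/- 2. Kcnk5 and Kcnk9, channels sensitive to extracellular pH, came next within the family with -0.28 ± 0.17 and -0.26 ± 0.20, and both values rested on PrlR+/+ 2, where Kcnk5 was at 6.62 and Kcnk9 at 6.93. Without that mouse they were -0.05 and -0.08.

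Voltage-gated channels open on depolarisation and repolarise the cell. Of the 15 pore subunits of the Kcna to Kcnd families, 5 lay above the median of all genes, led by Kcna2 with a mean of 9.36, Kcnd1 with 8.26 and Kcnb2 with 7.77. Kcnb2 is a delayed rectifier, and its values of 7.61 to 7.92 in PrlR+/+ and 7.49 to 7.98 in PrlR+/- mice overlapped. By the probe set with the higher mean, Kcna2 varied little, between 9.30 and 9.43, and its difference was -0.0050 ± 0.06 (SE). Its second probe set had a mean of 6.59 and gave a difference of -0.10. The largest difference of the family was that of Kcna5, at 0.16 ± 0.08, with 6.38 to 6.45 in PrlR+/+ and 6.45 to 6.74 in PrlR+/- mice. The groups touched at 6.45. The intervals of all 15 lay within 1.5-fold, with 8 positive and 7 negative differences.

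The silent subunits do not form channels alone but change those they join. Kcng3 was the highest of the 10, with a mean of 9.59 and a difference of -0.18 ± 0.16 (SE), which was -0.07 without PrlR+/- 4. Kcnf1 had the widest range of all 85 genes. It was at 7.33, 8.36 and 7.57 in PrlR+/+ 1 to 3 and at 7.30, 6.71, 7.96 and 7.75 in PrlR+/- 1 to 4, so mice of 1 genotype differed by more than the genotypes did. Its difference of -0.32 ± 0.35 was -0.02 without PrlR+/+ 2 and -0.08 without PrlR+/- 2. Kcnv1 was the most positive of all members, at 0.26 ± 0.11 (limma, unadjusted p = 0.0484, adjusted p = 0.99), from 5.53, 5.67 and 5.63 in PrlR+/+ 1 to 3 set against 5.88, 5.80, 5.67 and 6.13 in PrlR+/- 1 to 4. PrlR+/- 3 equalled PrlR+/+ 2, and without PrlR+/- 4 the difference was 0.17. Its unadjusted p was over 0.05 without any 1 of the mice other than PrlR+/- 3. At percentile 25.8, this gene lay near the lower quartile of all genes, which was itself 5.82 in PrlR+/- 4, above the 5.62 to 5.73 of the other 6.

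Channels of the EAG, ERG and ELK group and the KCNQ channels act on slower repolarisation. Kcnh2, the ERG channel known for its part in cardiac repolarisation, was at 9.70, 9.69 and 9.70 in PrlR+/+ 1 to 3 and at 9.76, 9.70, 9.96 and 9.59 in PrlR+/- 1 to 4, with a difference of 0.06 ± 0.09 (SE). Kcnh8 had a difference of -0.20 ± 0.10 by the probe set with the higher mean, and its second probe set gave 0.09, so the direction was not the same in both. All 3 measured KCNQ genes had positive differences, with a median of 0.14, and none passed. Kcnq1, which lies at a locus linked to diabetes risk in humans, was at 7.39, 7.76 and 7.33 in PrlR+/+ 1 to 3 and at 7.60, 7.91, 7.74 and 7.73 in PrlR+/- 1 to 4. PrlR+/+ 2 lay among the PrlR+/- mice, and the difference of 0.25 ± 0.12 was 0.39 without it. Kcnq1 also acts in epithelia, and its highest value was in PrlR+/- 2, where the marker means of most cell types were highest as well (alpha, PP, acinar, duct, endothelial, pericyte, stellate and myeloid cells). The acinar and duct means were at 12.65 and 7.58 in that mouse, against 12.07 to 12.49 and 7.21 to 7.40 in the other mice. Of these lists 9 of 10 acinar and 4 of 6 duct markers had higher means in PrlR+/- mice, and log2 summed levels ran from 16.16 to 16.49 and 11.16 to 11.48 in PrlR+/- and from 16.04 to 16.43 and 11.07 to 11.49 in PrlR+/+ mice. Their part in the value of Kcnq1 was not tested, and without PrlR+/- 2 its difference was 0.20.

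Calcium-activated channels of small and intermediate conductance end bursts of activity as calcium builds up. Kcnn3 was at 10.30, 10.28 and 10.27 in PrlR+/+ 1 to 3 and at 10.09, 9.79, 10.27 and 10.91 in PrlR+/- 1 to 4. The PrlR+/+ mice lay within 0.03 of each other and inside the range of the PrlR+/- mice, whose SD was 0.47. The difference was -0.02 ± 0.24 (SE), and it was -0.23 without PrlR+/- 4 and 0.14 without PrlR+/- 2. Kcnh1, an EAG channel chosen here after its values were seen, had the same highest and lowest mouse, at 8.65 in PrlR+/- 4 and 7.73 in PrlR+/- 2 against 8.01 to 8.11 in PrlR+/+ mice. Kcnn1, Kcnn2 and Kcnn4 lay between 6.83 and 7.20 with differences from -0.02 to 0.09. The sodium-activated channel gene Kcnt1 and its relatives Kcnt2 and Kcnu1 were dim, at 6.13, 4.04 and 5.42, with differences of 0.05, 0.05 and 0.11.

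**Figure D3:**
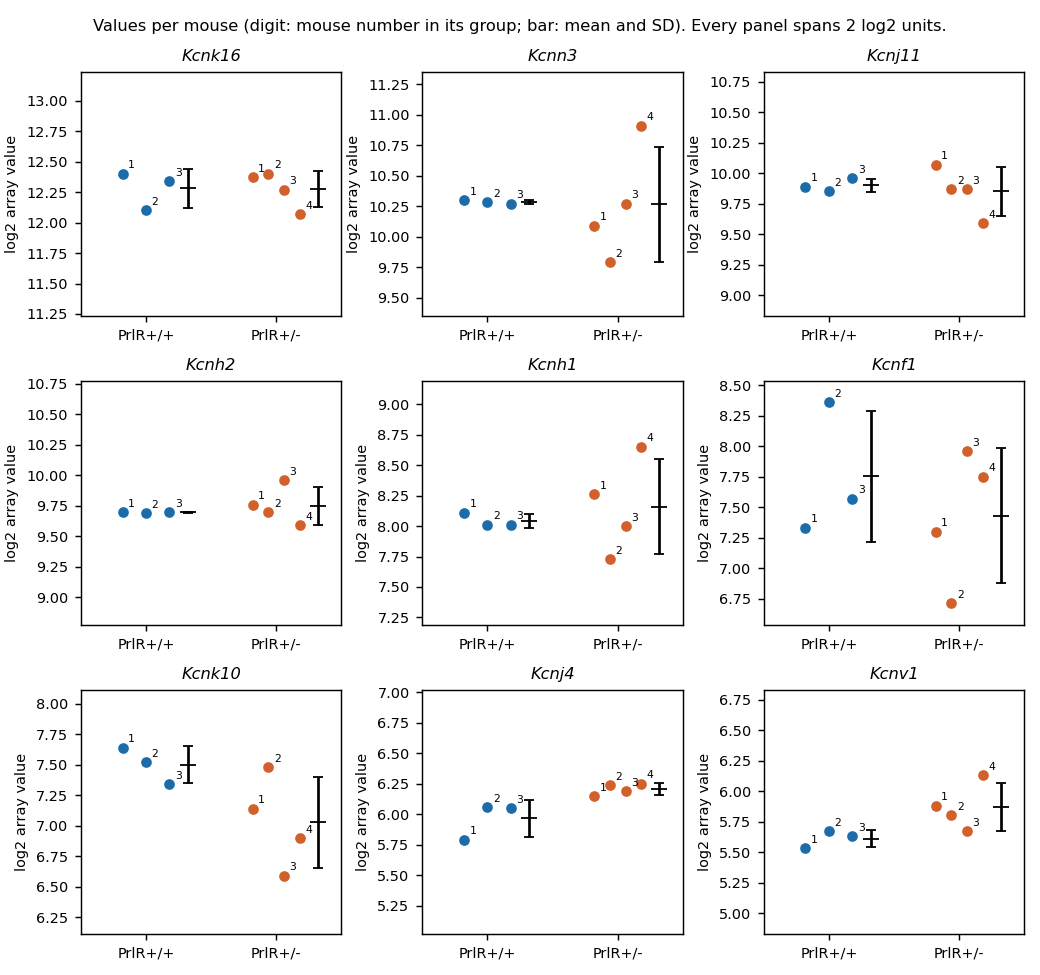
Log2 array values per mouse of 9 genes in PrlR+/+ (3 mice) and PrlR+/- (4 mice), with the mean and SD as a bar beside each group, every panel spanning 2 log2 units. Kcnk16, Kcnj11 and Kcnh2 overlap between genotypes, Kcnn3 and Kcnh1 spread from PrlR+/- 2 to PrlR+/- 4, and Kcnj4 alone has groups that do not overlap.

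Auxiliary proteins set the surface number and gating of the pores. The calcium-binding Kcnip proteins held 3 of the 9 highest places, with means of 11.01 for Kcnip1, 9.82 for Kcnip3 and 9.44 for Kcnip4, while the A-type channels they bind, Kcnd1, Kcnd2 and Kcnd3, had 8.26, 5.92 and 6.79. Kcnip3, known also as a DNA-binding repressor, was at 10.35 in PrlR+/+ 2 and at 9.63 to 9.87 in the other 6 mice. Its difference of -0.14 ± 0.17 (SE) was 0.08 without that mouse. Kcnab3, a subunit of Kcna channels, was at 9.18, above Kcnab2 at 7.07 and Kcnab1 at 6.15. The small membrane proteins Kcne1, Kcne1l, Kcne2, Kcne3 and Kcne4 were dim, with means of 5.26 to 5.81. Kcne3, which joins Kcnq1 in epithelia, was at 6.36 in PrlR+/- 4, while the other 6 mice lay from 5.29 to 5.78, and its difference of 0.10 ± 0.25 was -0.12 without that mouse. Of the 13 auxiliary genes 7 differences were positive and 6 negative. Kcnd3os had a difference of 0.05 ± 0.08, and the annotation does not say whether its probes and those of Kcnd3 can be told apart by strand.

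The receptor signals through STAT factors, whose consensus site is TTCNNNGAA, a palindrome that reads the same on both strands. The 250 bases before each transcription start in the RefSeq promoter table (build GRCm38.p6) were searched for it, and 64 of the 85 genes matched the table with 89 starts. The site was found before 6 of these starts (6.74%), against 7.02% of all 32851 starts of the table. The share among starts of potassium channel genes was thus near that of all starts. The 6 are shown as the matches of that search. By signal they ranked 2 (Kcnip1), 5 (Kcnip3), 41 (Kcnk4), 55 (Kcnab1), 73 (Kcnj9) and 77 (Kcnj16) among the 85 genes. The 9 bases of the site are in capitals:
Kcnip1: ccctgaatccTTCAGAGAAtatgctggga
Kcnip3: ctcctgggctTTCTGGGAAagaggggatg
Kcnk4: tatcagtgacTTCCTAGAActaggaccca
Kcnab1: aatttccataTTCCAAGAAgtgacaggta
Kcnj9: tgcctctattTTCCCAGAAtgaggagcac
Kcnj16: ttgagtgaccTTCAGAGAAacagaaccag

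These windows lie at chr11:33680862-33680890 on the minus strand for Kcnip1, chr2:127522140-127522168 on the minus strand for Kcnip3, chr19:6934706-6934734 on the minus strand for Kcnk4, chr3:64949014-64949042 on the plus strand for Kcnab1, chr1:172329526-172329554 on the minus strand for Kcnj9 and chr11:110967838-110967866 on the plus strand for Kcnj16. The site begins between 64 bases (Kcnip3) and 222 bases (Kcnj9) before the start. The 6 genes had differences of -0.01 for Kcnip1, -0.14 for Kcnip3, 0.0092 for Kcnk4, -0.02 for Kcnab1, 0.01 for Kcnj9 and -0.0050 for Kcnj16, and none passed. A match says only that these letters are present. Kcnk16, Kcnn3, Kcnj4 and Kcnk10 were not among the 6 genes with a match. This says nothing of sites elsewhere or of genes without a start in the promoter table.

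The spread between mice was not the same on every array. Of the 85 members, 57 had a range of less than 0.5 over the 7 mice and 4 a range above 1 (Kcnf1, Kcnn3, Kcne3 and Kcnk10). PrlR+/- 4 held the highest value, without ties, for 32 members (37.6%, against 29.3% of all genes) and for 27 of the 60 members below the median signal (45%, against 42.4% of all genes below it). Among the 15 members with the highest signals the same mouse was lowest for 6, which were Kcnk16, Kcnj11, Kcnh2, Kcng3, Kcnip4 and Kcna2, and highest for 4. The mean of 9 beta cell markers was 11.92 in that mouse and 12.05 to 12.21 in the other 6. Of the 9, Slc2a2 (11.31, others 11.94 to 12.39) and Mafa (9.54, others 10.32 to 10.36) were lowest there. All other markers lay within the range of the other 6 mice, and Iapp (13.52) and Nkx6-1 (11.27) shared their highest value with PrlR+/- 3. The summed log2 level of the 9 markers was 15.55 to 15.65 in PrlR+/- and 15.59 to 15.70 in PrlR+/+ mice, and 6 of the 9 had lower means in PrlR+/- mice. Their part in the channel values was not tested. PrlR+/- 3 was lowest for 21 members, 18 of them below the median signal, where the lower quartile of all genes was 5.62.

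**Figure D4:**
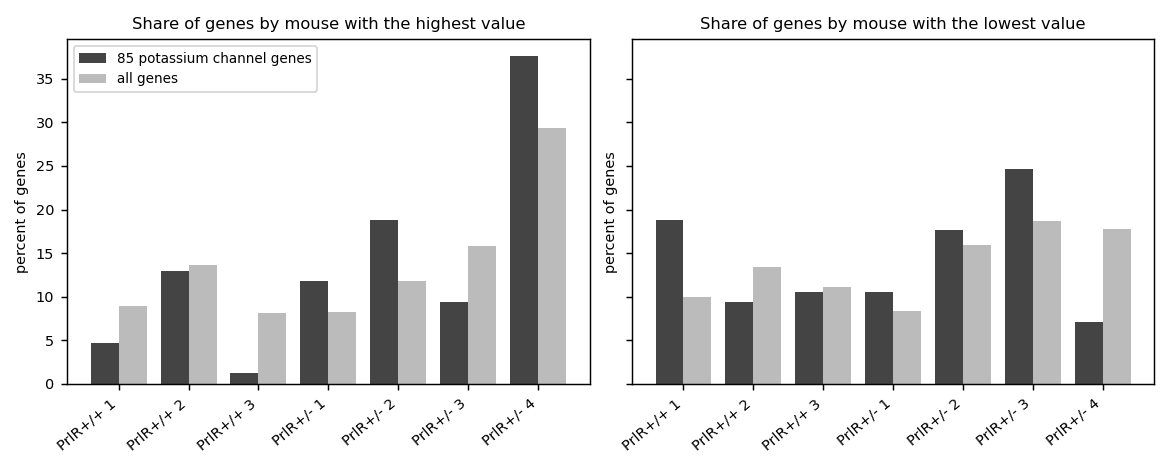
Share of genes (percent, y axis) for which each mouse (x axis) had the highest (left) or lowest (right) value without ties, for the 85 potassium channel genes (dark) and all genes (light). PrlR+/- 4 is highest in 37.6% of the channel genes and 29.3% of all genes, and PrlR+/- 3 lowest in 24.7% and 18.7%.

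Many members had equal values on several arrays. At least 3 of the 7 mice shared a value for 31 members (36.5%, against 34.5% of all genes), and at least 5 did for Kcnc4, Kcnh4, Kcnq3 and Kcnt1. Kcnh4 ranged over 0.02 in all. Deposited values have 2 decimals.

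Genes that work with potassium channels did not pass either. Of 16 measured partners and relatives 13 had higher and 3 lower means in PrlR+/- mice, with a median difference of 0.05. Of these 0 were called and 0 had groups that did not overlap, beside 2.24% of all genes. The smallest unadjusted p belonged to Dpp6, which speeds the gating of A-type channels, with 8.55 ± 0.12 (SD, n = 4) for PrlR+/- against 8.31 ± 0.17 (SD, n = 3) for PrlR+/+ mice, and to Cnga3, a cyclic nucleotide-gated channel, with a difference of 0.09 ± 0.07 (SE). Of 16 measured genes of beta cell electrical activity outside the potassium channels 6 had higher and 10 lower means, with a median of -0.05. Of these 0 were called and 1 had groups that did not overlap, as had 446 of all 19938 genes (2.24%). That gene was Scn9a, a voltage-gated sodium channel, at 9.98, 9.92 and 10.11 in PrlR+/+ 1 to 3 and at 9.82, 9.51, 9.73 and 9.18 in PrlR+/- 1 to 4. Every PrlR+/- mouse was lower, with a difference of -0.44 ± 0.15 (SE; limma, unadjusted p = 0.0214, adjusted p = 0.99). Cacna1c, a calcium channel of insulin release, differed by 0.17 ± 0.07.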

How the data were processed

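The authors deposited log2 values per probe set, 1 column per mouse, made with Affymetrix Expression Console 1.2.0.20 per the submitters' processing notes. How signals were corrected, normalized and summarized is not given in the sources used here. That the scale is log2 follows from the range of the values (1.73 to 13.97). Of 35556 probe sets 21789 had 1 gene symbol, and the probe set with the highest mean per gene gave 19938 genes. Dim genes were kept. The precision is limited by the number of arrays, 3 against 4, each from 1 mouse per the design text.

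Differences come from limma 3.58.1 in R 4.3.3 (lmFit and eBayes, 2-sided) across all genes, with Benjamini-Hochberg adjustment over all of them and 0.05 as threshold. The steps were tested on simulated data, drawn as independent normal values without ties and with the same spread on every array. That test does not show how often small changes would be found in the deposited values. Tables were handled with pandas 2.3.3 in Python 3.11.15.

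The members, lists and tests were chosen with earlier results of these data known. Named by rule were the 15 highest members, those with groups that do not overlap or an unadjusted p under 0.05, the 4 most positive and 4 most negative, the 3 of widest spread within groups, and 20 known from islet work, of which 17 were measured. Together these were 33. Each other list gave its members that pass, or else the 2 with the smallest p. Further members are named for their family, or after their values were seen. Some genes, the targeted gene among them, are not reported here. Alternatives were other variance models, array weights, quantile normalization, median centring, a filter at the 40th percentile, the mean of all probe sets, the replicate number as a block, a threshold of 0.1 and leaving out each mouse. The marker lists for cell types were beta, alpha, delta, PP, acinar, duct, endothelial, pericyte, stellate, myeloid, lymphocyte and nerve, and 0 of their genes passed.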

Additional observations from a re-analysis of the deposited data

Results flagged for a closer look

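In 12 of 85 members 1 of the 4 PrlR+/- mice lay far from the other 3 for the width of the group (14.1%, against 15% of all genes). The rate of about 1 in 20 by chance holds for continuous normal values, not for values with 2 decimals and many ties. Where the other 3 mice share a value, any step is flagged, as for Kcnq3, Kcnt1, Kcnd3 and Kcnh4. The 2 rates therefore cannot be compared. In PrlR+/- 4, Kcnn4 was at 7.22 (the others at 6.73 to 6.77), Kcnc1 at 6.5 (6.33 to 6.35) and Kcnq3 at 6.37 (6.32 in all others). In PrlR+/- 3, Kcnk15 was at 6.95 (7.37 to 7.44), Kcne4 at 5.4 (5.75 to 5.82), Kcna1 at 6.61 (6.87 to 6.89) and Kcnc2 at 6.24 (6.33 to 6.34). In PrlR+/- 2, Kcnh8 was at 7.31 (7.62 to 7.68), Kcnt1 at 6.26 (6.12), Kcnd3 at 6.88 (6.79) and Kcnh4 at 6.74 (6.73). In PrlR+/- 1, Kcnj10 was at 6.31 (6.14 to 6.16). For 7 of the 12 the whole group spanned less than 0.2.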

How the results depend on the processing

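Under all 15 alternative fits and the threshold of 0.1, 0 potassium channel genes and 0 of all genes were called, and the smallest adjusted p of a member was 0.818. The number of members with an unadjusted p under 0.05, 3 as reported, was 5 with array weights (5.88%, against 5.68% of all genes). It was 1 with the filter on dim genes, which 45 members passed (2.22%, against 2.21% of the genes past it). With a mouse left out it was 0 to 3 (0% to 3.53%, against 1.24% to 3.98% of all genes). The number with groups that did not overlap, 1 as reported, was 2 with quantile normalization and 2 with median centring (2.35% in both, against 3.57% and 4% of all genes). It was 0 with the filter, which removed Kcnj4 (0%, against 2.74% of the genes past it). With a mouse left out, where fewer values have to be separated, it was 2 to 7 (2.35% to 8.24%, against 3.54% to 10.3% of all genes). The cause of the other changes was not tested. The median difference of the 85 genes, 0.02, lay between -0.0067 and 0.047 over the alternatives, less than the spread of the members' median between mice (0.0628) from the reported value. The block by replicate number leaves PrlR+/- 4 without a partner, so its differences equal those without that mouse. With the replicate number as a block the median was -0.0067 and 3 members had an unadjusted p under 0.05. The deviations of mice with the same number correlated over genes at 0.09, -0.386 and -0.029. Those of mice with different numbers correlated at -0.238 to 0.398. So few correlations cannot decide whether the numbers pair the mice. Of the 33 members named by rule, 14 kept the sign of their difference in every alternative that could be computed for them and 19 did not, and 0 of these differences was called at any time. No background level was given, so how far dim signals can show a difference is unknown.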
